A study of Gallus gallus with 8 samples.

Results

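TFAP2A, TFAP2B and TFAP2C encode AP-2 transcription factors and were taken by gene name from the count table of a chick embryo RNA sequencing series. They are 3 of 17329 genes, listed as ENSGALG00000012775, ENSGALG00000016680 and ENSGALG00000007690. The series has 8 libraries, 1 per tissue, with no genetic alteration and 1 embryological manipulation. Pre-streak embryos (EGKXII/XIII) gave the central and the anterior epiblast. Embryos at HH4 (a Hamburger and Hamilton stage) received a graft of Hensen's node in the extraembryonic area opaca; epiblast in contact with it was taken after 5 hours, together with ungrafted area opaca from the opposite side. Tissues cut from HH6/7 embryos were neural plate, preplacodal region in an anterior and a posterior piece, and the remaining anterior head ectoderm, called non-neural ectoderm here. The labels credit 5 libraries to one laboratory and 3, the preplacodal and non-neural ones, to another; the number of embryos behind a library is not given in the sources used here. The title of the series concerns a starting state, like neural plate border, in both neural and placode induction.

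AP-2 proteins bind GC-rich palindromic elements as homodimers or heterodimers of family members, so the paralogues can share sites. In vertebrate embryos TFAP2A is an early gene of surface ectoderm and of the neural plate border, and is needed for neural crest. TFAP2C acts in early ectoderm as well and, in mammals, in trophoblast and in germ cell precursors. TFAP2B is best known from neural crest derivatives, limb and kidney.

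Column totals ran from 13053810 in the grafted area opaca to 138666339 in the posterior preplacodal region. Levels are CPM, counts scaled to a common column total, and brackets hold exact 95% intervals that cover counting error only. With 1 library per tissue there is no test and no replicate check. A ratio is called where it reaches 2 in either direction and the higher of both levels is 5 CPM or more. Marker genes fitted the labels of the HH6/7 libraries in part. Of the preplacodal genes, EYA2 was at 78.5 CPM (anterior) and 78.4 CPM (posterior) in the preplacodal pieces against 1.92 to 13.6 CPM elsewhere, and SIX4 at 37.5 and 35.9 CPM against 13.3 to 20.5 CPM. EYA1, at 31.5 and 8.72 CPM, was in the posterior piece below the 12.8 CPM of non-neural ectoderm, and HOMER2, at 35.1 and 33.8 CPM, was below the 85.3 CPM of the anterior epiblast and the 58.7 CPM beside the graft. The neural gene SOX2 was at 59.98 CPM in the neural plate against 0 to 15.5 CPM elsewhere, although 6 neural plate markers together summed to 727 CPM there and to 578 and 462 CPM in the preplacodal pieces. The 7 markers of non-neural ectoderm summed to 2738 CPM in that tissue, 2205 CPM in the ungrafted area opaca, 1147 and 926 CPM in the preplacodal pieces and 245 to 933 CPM in the others; GATA3 and DLX5 were lower in non-neural ectoderm (56.3 and 99.1 CPM) than in the anterior (104 and 233 CPM) and the posterior piece (63.7 and 140.5 CPM). SIX3, a forebrain regulator, is listed at 0 in every library and checks nothing. The non-neural library also held blood and vessel markers (5 of 6 matched, summing to 62.7 CPM against 1.51 to 5.45 CPM elsewhere), endoderm and yolk markers (6 of 6 matched, 162 CPM against 13.8 to 90.5 CPM) and mesoderm markers (6 of 6 matched, 84.4 CPM against 3.13 to 16.5 CPM in the other HH6/7 libraries); their part in the AP-2 values was not tested. The label gives this tissue as anterior, but its count column has a prefix p that the sample title lacks, and HOXA2, a HOX gene of hindbrain levels, was at 11.2 CPM there against 0.623 CPM in the anterior and 3.80 CPM in the posterior preplacodal piece.

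TFAP2A was high in ectoderm at the edge of and outside the neural plate and low in the anterior epiblast. Its level was 323 CPM in the posterior and 277 CPM in the anterior preplacodal region, 178 CPM in the non-neural ectoderm, 95.9 CPM in the central epiblast and 90.3 CPM in the ungrafted area opaca. It was 39.5 CPM in the neural plate, 22.7 CPM in the grafted area opaca and 3.49 CPM in the anterior epiblast. The 3 highest libraries are those of the second laboratory, so that tissue and laboratory cannot be told apart for the step from 95.9 to 178 CPM. In bulk tissue, fewer cells with the transcript and less transcript per cell cannot be told apart either. Neighbours in this order differed by ratios of 1.06 [1.002, 1.13] (central epiblast over ungrafted area opaca) to 1.86 [1.81, 1.91], apart from the steps below the ungrafted area opaca (2.29 [2.15, 2.43]) and above the anterior epiblast (6.50 [5.55, 7.61]). The highest level was 92.7 times the lowest, and of 9462 genes that reached 10 CPM in some library 2.16% had a larger range.

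TFAP2C was high nearly everywhere but in the neural plate. Its level was 336 CPM in the anterior epiblast, 232 CPM in the non-neural ectoderm, 207 CPM in the central epiblast, 203 CPM in the anterior and 176 CPM in the posterior preplacodal region. The grafted area opaca had 167 CPM, the ungrafted one 81.3 CPM and the neural plate 14.8 CPM. From the second to the sixth place neighbours differed by ratios between 1.02 [1.002, 1.04] and 1.15 [1.13, 1.18], differences that no replicate checks. The last 2 steps were larger, at 2.05 [1.91, 2.21] and 5.48 [5.08, 5.91]. The highest level was 22.7 times the lowest, a range exceeded by 6.57% of the genes that reached 10 CPM.

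TFAP2B was scarce throughout and lay in 3 of the HH6/7 tissues. Its counts were 795 in the posterior preplacodal region, 310 in the neural plate and 109 in the anterior preplacodal region, which equal 5.73, 2.82 and 1.13 CPM. The remaining libraries had 20 counts (central epiblast), 18 (anterior epiblast), 8 (non-neural ectoderm) and 0 (both area opaca libraries). A count of 0 allows up to 0.230 CPM beside the graft and 0.206 CPM opposite it with a floor of 3 counts, and the exact intervals of these zeros reach 0.283 and 0.253 CPM. These limits lie above the 0.200 and 0.181 CPM of the deeper pre-streak libraries, so a difference from those was not detectable.

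**Figure D1:**
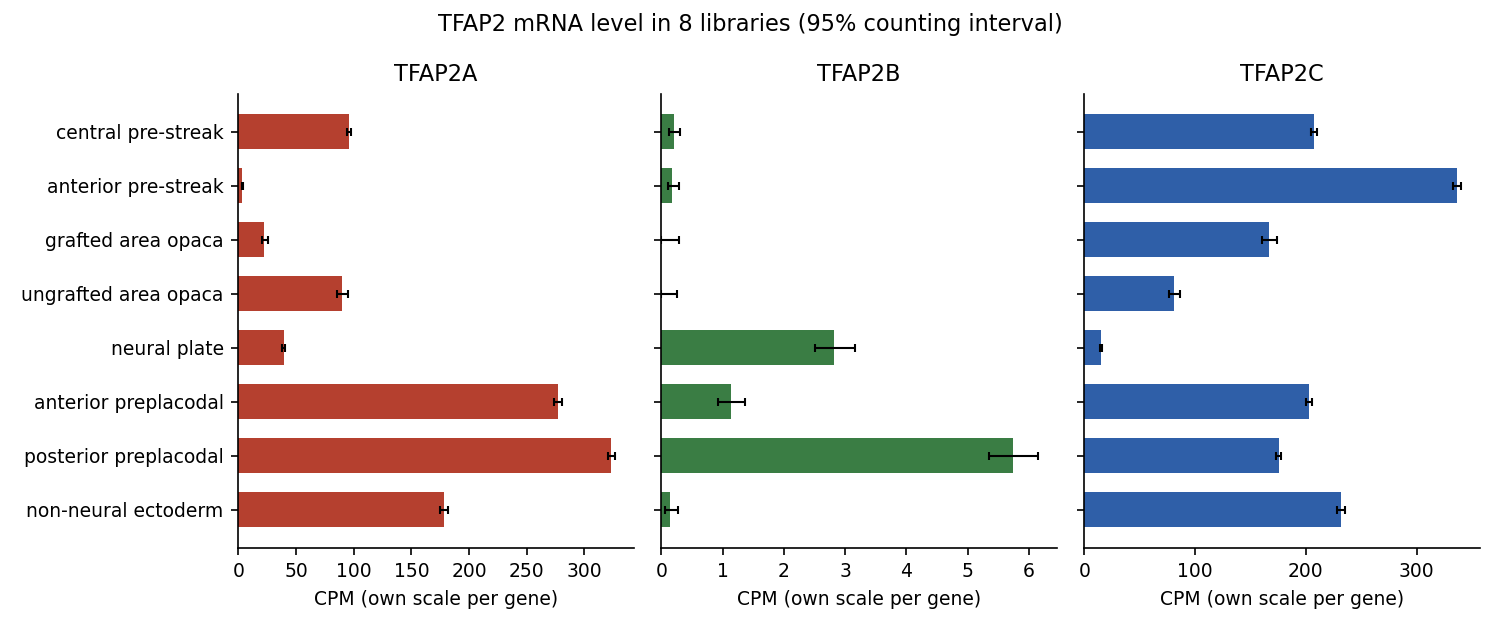
Level of TFAP2A, TFAP2B and TFAP2C (CPM, linear axis with its own scale per gene) in each of 8 libraries; bars are single libraries and whiskers exact 95% counting intervals. TFAP2A peaks at 323 CPM in the posterior preplacodal region, TFAP2C at 336 CPM in the anterior epiblast, and TFAP2B reaches 5.73 CPM.

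Within the pre-streak epiblast the paralogues went opposite ways. TFAP2A stood at 3.49 CPM anteriorly (348 counts) against 95.9 CPM centrally (9603 counts), 27.5-fold lower [24.7, 30.7]. Of the 9312 genes with 5 CPM in either library 4.71% were called lower, and 8 had a lower ratio than TFAP2A. TFAP2C was higher, with 336 CPM anteriorly and 207 CPM centrally, but its ratio of 1.62 [1.60, 1.65] was not called; 6.09% of genes were called higher. TFAP2B had 18 and 20 counts. In a contrast of paralogues, in which gene length and library scaling cancel, TFAP2A stood 44.6 times lower [40.1, 49.9] relative to TFAP2C. The anterior library also held more of 6 mesoderm markers (summing to 176 against 61.8 CPM, 174 against 59.2 CPM of it TBX6) and of 5 node markers (119 against 27.1 CPM, of which SHH was at 0.461 and 0.120 CPM), and less of 6 endoderm and yolk markers (37.2 against 90.5 CPM); their part was not tested.

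In the area opaca, contact with the node went with less TFAP2A and more TFAP2C. TFAP2A stood at 22.7 CPM on the grafted side (296 counts) and 90.3 CPM on the ungrafted side (1316 counts), 3.98-fold lower [3.51, 4.53]. TFAP2C stood at 167 CPM (2181 counts) against 81.3 CPM (1185 counts), a ratio of 2.05 [1.91, 2.21]. Both pass the rule of size, TFAP2C barely: its log2 ratio of 1.04 became 0.96 with deposited FPKM and a pseudocount of 1. Of 9437 genes 8.57% were called lower and 7.56% higher; 3.24% had a lower ratio than TFAP2A and 7.20% a higher one than TFAP2C. TFAP2B had no count on either side. Relative to TFAP2C, TFAP2A was 8.18 times lower [7.07, 9.49] on the grafted side. Node markers were higher beside the graft, their 5 genes summing to 37.6 against 2.13 CPM: T (brachyury) was at 24.8 against 0.206 CPM and CHRD (chordin) at 8.04 against 0 CPM. No SHH count was found in either library. The 6 endoderm and yolk markers were lower beside the graft, at 13.8 against 79.0 CPM. The part of these markers in the AP-2 values was not tested.

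**Figure D2:**
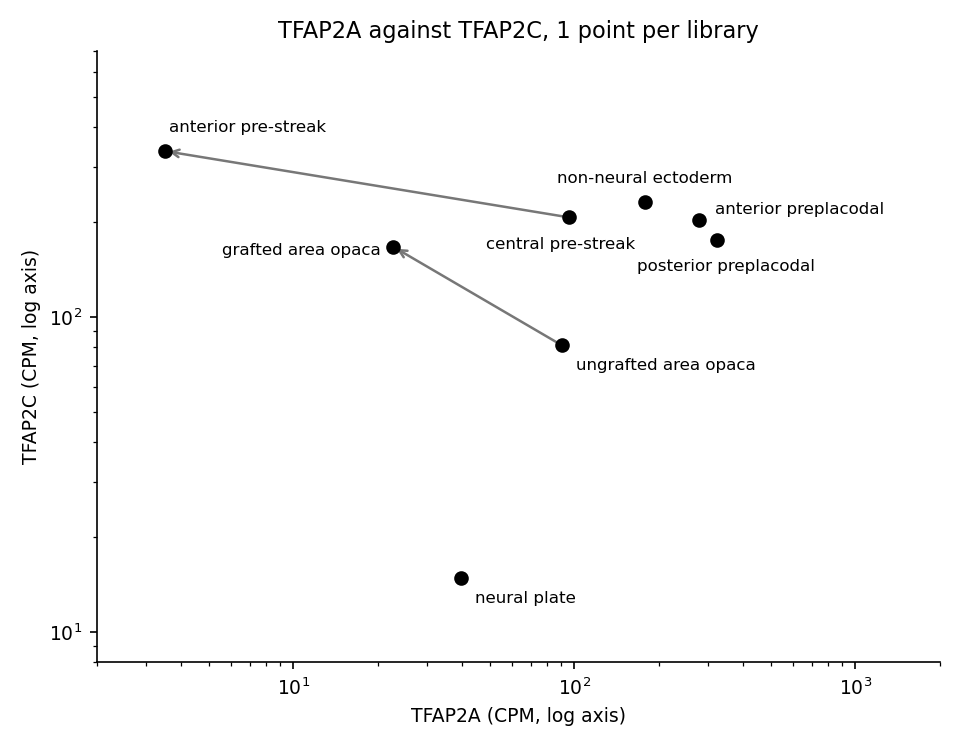
TFAP2A (x, CPM, log axis) against TFAP2C (y, CPM, log axis), 1 point per library; arrows run from the central to the anterior epiblast and from the ungrafted to the grafted area opaca. Both arrows point to less TFAP2A and more TFAP2C, while the neural plate lies low for both, at 39.5 and 14.8 CPM.

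In both pairs the makeup of the pool of these 3 paralogues differed more than its size. The family member TFAP2E is not in this pool, here or at HH6/7. It stood at 0.919 CPM in the grafted and 8.10 CPM in the ungrafted area opaca, and at 17.2 CPM in non-neural ectoderm. To set different genes side by side, CPM was divided by the transcript length that the deposited FPKM and counts imply together. The implied lengths were first brought to a common level across libraries. Before this their median over genes ran from 2037 bases (central epiblast) to 2648 bases (grafted area opaca). The length was then 1186 bases for TFAP2A (1042 to 1408 over 8 libraries) and 2252 bases for TFAP2C (1776 to 2282). For TFAP2B it was 1356 bases (1304 to 1395 over the 3 libraries with 100 counts or more). On this scale the 3 genes summed to 93.3 CPM per kb in the grafted and 112 CPM per kb in the ungrafted area opaca, 1.203-fold less, while the share of TFAP2A was 20.5% against 67.8%. In the epiblast the sums were 152 anteriorly and 173 CPM per kb centrally, 1.13-fold less, with TFAP2A shares of 1.93% and 46.8%. The direction of these small differences in size turned without length scaling, where the sums were 189.8 against 171.6 CPM and 339.9 against 303.1 CPM, 1.11-fold and 1.12-fold more. The share of TFAP2C was 98.0% in the anterior epiblast and 79.5% in the grafted area opaca.

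At HH6/7 the pool differed in size between tissues. It summed to 355 CPM per kb in the posterior and 325 CPM per kb in the anterior preplacodal region, 253 CPM per kb in the non-neural ectoderm and 41.9 CPM per kb in the neural plate. TFAP2A held 76.8%, 72.0%, 59.3% and 79.3% of these sums in the same order. It led in all 4, as in the ungrafted area opaca, although by plain counts TFAP2C led in the non-neural ectoderm, where TFAP2A had 43.5% of the counts. TFAP2B made up 4.96% of the neural plate sum, 1.19% of the posterior and 0.257% of the anterior preplacodal sum and 0.0397% of the non-neural sum. The neural plate, lowest in the sum, was the tissue with the highest TFAP2B share, while its TFAP2B level was below that of the posterior preplacodal region. It is also the only HH6/7 library of its laboratory, so that tissue and laboratory cannot be told apart for its low sum.

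**Figure D3:**
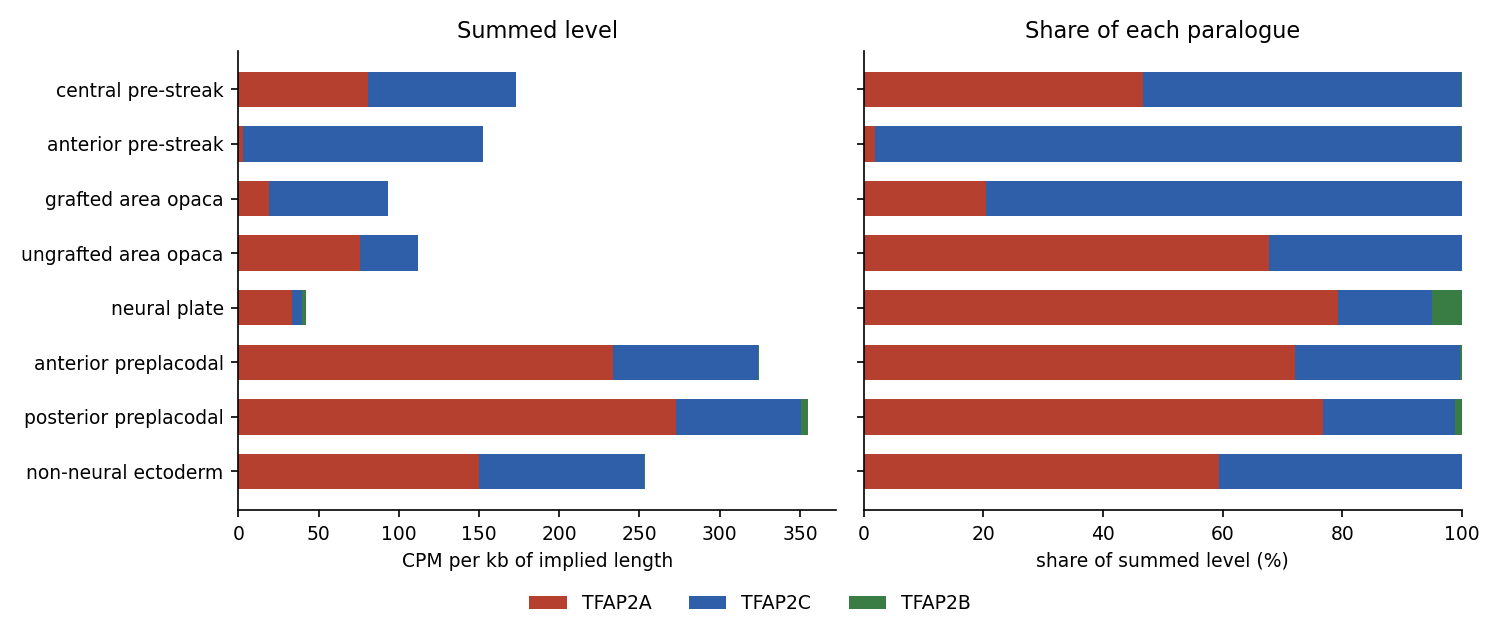
Left, summed level of the 3 paralogues per library (CPM per kb of implied length); right, share of each paralogue in that sum (percent). The sum runs from 41.9 in the neural plate to 355 in the posterior preplacodal region, and TFAP2A makes up from 1.93% (anterior epiblast) to 79.3% (neural plate) of it.

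Against non-neural ectoderm the neural plate had less TFAP2A and TFAP2C and more TFAP2B. TFAP2A was 4.52-fold lower [4.36, 4.68] and TFAP2C 15.6-fold lower [14.8, 16.5], both called, where 13.1% of 10206 genes were called lower, 9.18% higher and 22.2% in either direction. TFAP2A thus stood 3.46 times higher [3.25, 3.68] relative to TFAP2C in the neural plate. TFAP2B was 20.7-fold higher [10.4, 48.4] on 310 against 8 counts, but stayed under 5 CPM in both. The deposited FPKM of TFAP2B, 2.21 against 0.244, give a smaller log2 ratio of 2.75 (pseudocount 0.1) or 1.37 (pseudocount 1). The 4.37 on CPM has no pseudocount, so measure and pseudocount differ together. These 2 libraries come from different laboratories, and laboratory and tissue cannot be told apart.

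The preplacodal regions lay within 2-fold of non-neural ectoderm in TFAP2A and TFAP2C, and further from it in TFAP2B. TFAP2A was 1.56-fold [1.52, 1.59] higher in the anterior and 1.81-fold [1.78, 1.85] higher in the posterior region than in non-neural ectoderm. TFAP2C was 1.14-fold [1.12, 1.17] and 1.32-fold [1.29, 1.35] lower. None of these 4 ratios was called, where 13.9% of genes were called in the anterior comparison (6.73% higher, 7.22% lower) and 15.4% in the posterior one (6.93% higher, 8.48% lower). A higher ratio than that of TFAP2A was found for 12.5% of genes in the anterior and 8.67% in the posterior comparison. Both regions nevertheless had more TFAP2A relative to TFAP2C, by 1.78 times [1.72, 1.84] and 2.39 times [2.32, 2.46]. TFAP2B was 42.1-fold higher [21.3, 97.8] in the posterior region on 795 against 8 counts; this was called, as were 6.93% of 10137 genes in this direction, and 12 genes had a higher ratio. On deposited FPKM, 4.15 against 0.244, its log2 ratio was 3.63 (pseudocount 0.1) or 2.05 (pseudocount 1), in place of 5.40 on CPM without a pseudocount. In the anterior region its ratio was 8.31 [4.07, 19.7], under 5 CPM in both libraries. These 2 comparisons share the non-neural library.

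Between the preplacodal regions themselves TFAP2B was the paralogue that differed. It was 5.06-fold lower [4.14, 6.24] in the anterior region, at 1.13 against 5.73 CPM. There 0.700% of 9856 genes were called lower and 1.49% in either direction, and 8 had a lower ratio than TFAP2B. TFAP2A was 1.17-fold lower [1.15, 1.18] and TFAP2C 1.15-fold higher [1.13, 1.18] anteriorly, neither called. The family member TFAP2E was called as well, 2.65-fold lower [2.26, 3.13] anteriorly on 193 against 738 counts, and 32 genes had a lower ratio.

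Set against the preplacodal regions, the neural plate was lower in TFAP2A and TFAP2C as well. The neural plate library is the same as in the comparison with non-neural ectoderm, so these are not separate observations of its low levels. Against the anterior region TFAP2A was 7.03-fold lower [6.80, 7.26] and TFAP2C 13.7-fold lower [13.0, 14.4], where 6.60% of 9952 genes were called lower, 2.86% higher and 9.47% in either direction. Against the posterior region they were 8.19-fold [7.94, 8.45] and 11.8-fold [11.3, 12.5] lower, where 5.03% of 9894 genes were called lower, 2.14% higher and 7.18% in either direction. TFAP2B was 2.03-fold lower [1.78, 2.32] than in the posterior region, a call that was lost with TMM (trimmed mean of M values) scaling at a log2 ratio of -0.997, and 2.49-fold higher [1.997, 3.13] than in the anterior region, under 5 CPM in both. The laboratory again differs between the sides.

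Tissues of different stages were also set side by side. The ungrafted area opaca differed little from the central epiblast in TFAP2A (90.3 against 95.9 CPM) and had 2.55-fold less TFAP2C [2.40, 2.70]. In this pair 10.4% of 9482 genes were called lower, 14.9% higher and 25.3% in either direction. Its libraries also differ in depth, with column totals of 14573663 and 100147917. The head non-neural ectoderm had 2.85-fold more TFAP2C [2.68, 3.02] than the ungrafted area opaca, where 14.8% of 9846 genes were called higher and 2.75% lower. Its TFAP2A was 1.97-fold higher [1.86, 2.09], just short of the rule. In this last pair both alternative scalings lowered every log2 ratio by 0.18, stage and laboratory differ together, and the TFAP2A log2 ratio was 0.80 with TMM.

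**Figure D4:**
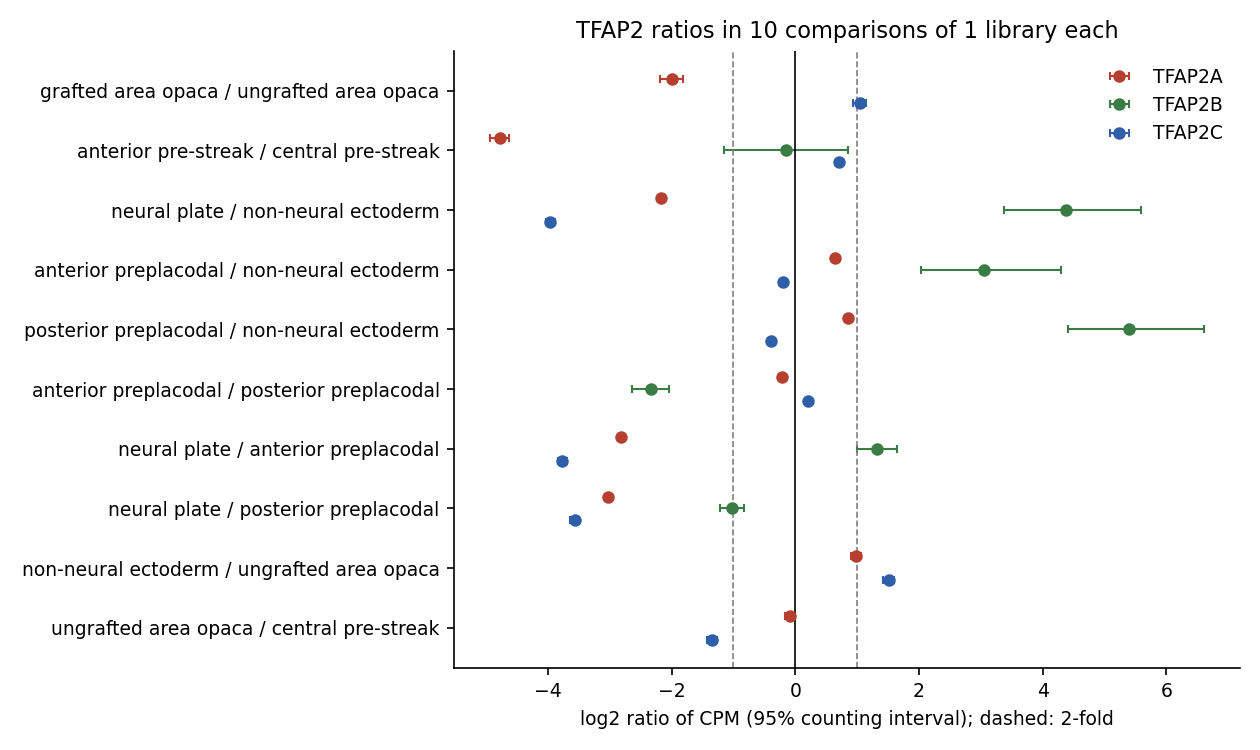
Log2 ratio of CPM (x) for each paralogue in 10 comparisons of single libraries (y), with exact 95% counting intervals; dashed lines mark a ratio of 2 in either direction, and pairs with a TFAP2B count of 0 are not drawn. TFAP2A and TFAP2C lie on opposite sides of 0 in the grafted and the pre-streak pair and both below -2 for the neural plate against each other HH6/7 tissue. They also lie on opposite sides of 0, both within the dashed lines, in the comparisons among preplacodal and non-neural libraries.

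Across the 8 libraries TFAP2A and TFAP2C did not vary together (Pearson r -0.01, Spearman coefficient 0.05, on log2(CPM + 1) and on ranks). The coefficients were 0.41 and 0.50 for TFAP2A with TFAP2B, and -0.38 and -0.06 for TFAP2B with TFAP2C. These are descriptions over 8 points that differ in stage, laboratory and depth.

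Of the other family members, TFAP2E was found in surface ectoderm and TFAP2D hardly at all. TFAP2E stood at 17.2 CPM in the non-neural ectoderm, 8.10 CPM in the ungrafted area opaca, 5.32 CPM in the posterior and 2.01 CPM in the anterior preplacodal region, and between 0.0301 and 0.919 CPM in the other 4 libraries. It was 8.81-fold lower [4.86, 17.5] on the grafted side, on 12 against 118 counts, and 2.21 times lower [1.199, 4.46] relative to TFAP2A. TFAP2D had at most 11 counts in any library.

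The genes most like each paralogue were ranked by Pearson's r over the 8 libraries on log2(CPM + 1), among the 9461 or 9462 other genes that reached 10 CPM. TFAP2B was most like PAX-7 (r 0.99) and PAX3 (0.97), paired-box regulators of the neural plate border and neural crest, followed by the zinc finger gene SP5 (0.94), the chloride channel gene CFTR (0.93) and BRINP2 (0.92). PAX-7 stood at 39.4 CPM in the posterior preplacodal region, 24.6 CPM in the neural plate and 4.38 CPM in the anterior preplacodal region, and between 0 and 0.712 CPM in the other 5 libraries. PAX3 was at 18.8, 13.0 and 5.97 CPM in those 3 tissues and between 1.37 and 3.29 CPM elsewhere. Both genes have the order of TFAP2B in the 3 tissues where it was highest. They were picked by likeness over these same libraries, so this order is no separate observation. By Spearman's coefficient, in which the near-empty libraries weigh as much as the others, PAX-7 came in place 90 (0.93) and PAX3 in place 634 (0.79). With a pseudocount of 0.1 PAX-7 stayed in place 1, while SP5 came in place 5, PAX3 in place 8, BRINP2 in place 24 and CFTR in place 51. TFAP2B itself does not reach the 10 CPM asked of the ranked genes. With a minimum of 1 CPM, among 12490 genes, PAX-7 stayed in place 1. PAX3 then came in place 4, SP5 in place 15, CFTR in place 19 and BRINP2 in place 21.

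**Figure D5:**
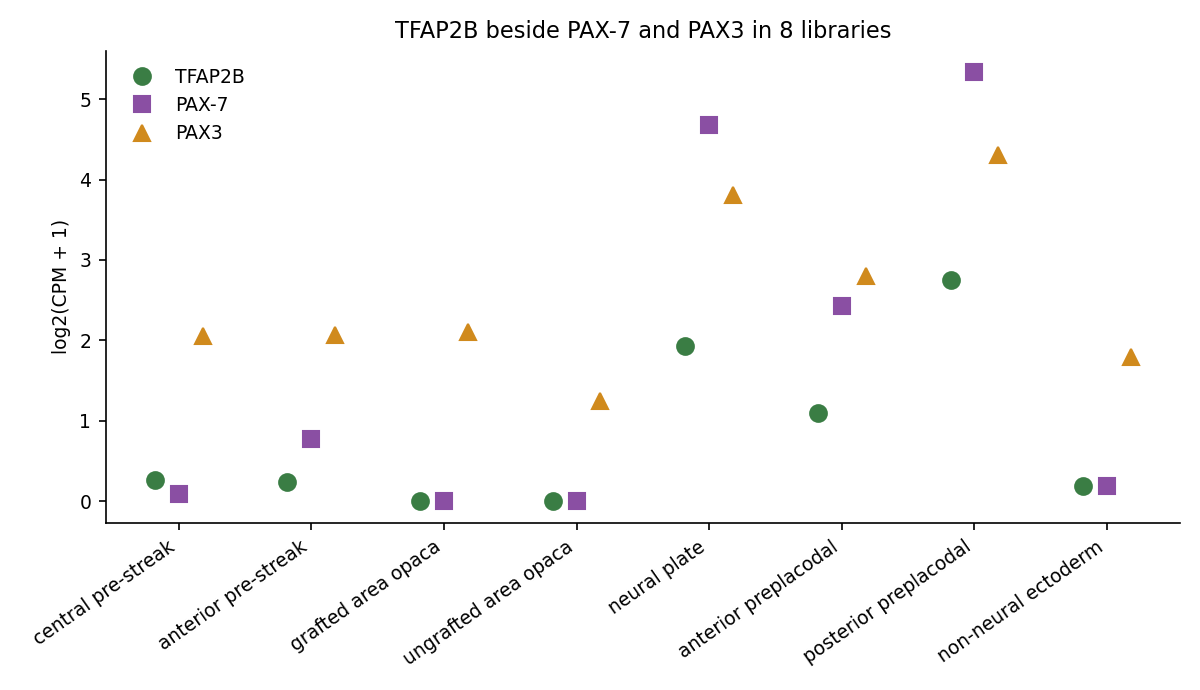
Level of TFAP2B, PAX-7 and PAX3 as log2(CPM + 1) (y) in each of 8 libraries (x), 1 marker per gene and library. All 3 are highest in the posterior preplacodal region, then the neural plate, then the anterior preplacodal region. PAX-7 and PAX3 were picked by their likeness to TFAP2B over these libraries.

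Neural crest specifiers were looked up beside TFAP2B. Here and in the lists below, shares of all genes are over genes with 5 CPM in either library, while list members count from 1 CPM. A listed gene between 1 and 5 CPM cannot be called, so the 2 kinds of share have unlike bases and compare only roughly. Of 15 matched genes 14 were measured (1 CPM in either library) for the neural plate over non-neural ectoderm, and 7 were higher, 1 lower and 6 neither (median log2 ratio 1.45 against 0.02 over all measured genes), where 9.18% of all genes were called higher and 13.1% lower. Of 14 measured in that comparison, the posterior preplacodal region had 6 higher than non-neural ectoderm and 1 lower (median 0.65 against 0.04; of all genes 6.93% and 8.48%). The anterior region, at 1.13 CPM of TFAP2B, had 4 of 14 higher and 1 lower (of all genes 6.73% and 7.22%). Its median of 0.74 was above that of the posterior region. ZIC1, an early border gene, stood at 23.9 CPM in the neural plate and 5.50 CPM in the posterior preplacodal region with no count in non-neural ectoderm. SOX9 differed less, at 20.2 and 14.0 against 12.3 CPM, and SOX10, a later crest gene, was at 1.58 and 2.37 against 3.81 CPM. Between the preplacodal regions 3 of 14 were lower anteriorly and none higher (median -0.53 against 0.01), where 0.700% of all genes were called lower and 0.791% higher. The 3 were PAX-7, PAX3 and CDH6 (2.10 against 6.05 CPM). PAX-7 and PAX3 belong to this list and were picked by likeness to TFAP2B over these same libraries. Neither the list nor this count, of which they make up 2, is therefore separate from the ranking.

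The 5 named genes most like TFAP2A were the Notch ligand DLL1 (r 0.96), the kinase gene LRRK2 (0.96), the ligand BMP4 (0.96), the calmodulin-dependent kinase gene CAMK1 (0.95) and the scaffold gene MAGI3 (0.94). DLL1 ran from 0.381 CPM in the anterior epiblast to 31.2 CPM in the anterior preplacodal region, and BMP4 from 6.16 CPM in the anterior epiblast to 92.1 CPM in the posterior preplacodal region. LRRK2 (7.84 to 18.1 CPM) and CAMK1 (25.1 to 40.2 CPM) had narrow ranges, and with TMM scaling CAMK1 fell to place 92. The genes most like TFAP2C were the matrix gene VWA2 (0.98), LTBP2, a matrix gene of the latent TGF-beta binding protein family (0.93), the astacin-like protease gene ASTL (0.91), the sulfatase gene ARSJ (0.89) and KLF3 (0.89). VWA2 ran from 4.196 CPM in the neural plate to 27.6 CPM in the anterior epiblast, the lowest and highest tissues of TFAP2C too. For ARSJ and KLF3 the Spearman coefficients were 0.50 and 0.48, with their lowest level in the neural plate as well.

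Partners of AP-2 proteins, a list of coactivators and inhibitors known mainly from mammals and zebrafish, differed in part between the area opaca libraries. On the grafted side 4 of 13 measured genes were higher, 1 lower and 8 neither (median log2 ratio 0.43 against 0.02 over all 11343 measured genes). Of the 9437 genes with 5 CPM in either library 7.56% were called higher and 8.57% lower. KCTD15 and KCTD1, which inhibit AP-2 activity, stood at 19.8 against 5.42 CPM (3.66-fold) and 16.4 against 6.11 CPM (2.68-fold). CITED3, listed as CITED4 in RefSeq, a CITED family coactivator gene, was at 137 against 33.9 CPM, and YEATS4, which encodes an AP-2 binding chromatin protein, at 118 against 29.7 CPM. MYC, whose protein AP-2 can bind, was lower, at 29.4 against 95.4 CPM. The acetyltransferase coactivators EP300 (181 against 190 CPM) and CREBBP (91.7 against 96.2 CPM) were neither.

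In the pre-streak pair 3 of the 13 partners were higher anteriorly, 2 lower and 8 neither (median 0.17 against 0.01; of all genes 6.09% higher and 4.71% lower). CITED3 (75.0 against 24.2 CPM) and YEATS4 (236 against 60.8 CPM) were higher and MYC (14.5 against 156 CPM) lower, as beside the graft. KCTD1 (12.7 against 6.69 CPM) and KCTD15 (4.48 against 4.91 CPM) were not called. Against non-neural ectoderm 2 of 13 were higher in the neural plate and none lower, and the preplacodal pieces had 1 (anterior) and 2 (posterior) higher and 1 lower each. The medians were 0.13, 0.30 and 0.37. Of all genes 9.18%, 6.73% and 6.93% were called higher, so that the anterior count is near the share over all genes. Called lower were 13.1%, 7.22% and 8.48% of all genes, and the 1 lower in each preplacodal piece is near that share too. Of the partners called higher, CITED2 stood at 9.25 CPM in the neural plate and 6.48 CPM in the posterior region against 1.53 CPM. The inhibitor gene KCTD15 was higher in both preplacodal pieces, where TFAP2A was not lower. It stood at 17.2 CPM (anterior) and 16.1 CPM (posterior) against 7.015 CPM in non-neural ectoderm.

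Genes described in mammals as AP-2 targets showed mixed values. The list gives no direction of regulation, and whether the members act on these genes was not tested. On the grafted side 2 of 15 measured were lower, none higher and 13 neither (median -0.22 against 0.02). The lower count is near the 8.57% of all genes called lower, and 7.56% were called higher. The 2 lower were the keratin genes KRT14 (1.07 against 11.3 CPM) and KRT18 (85.2 against 216 CPM). Anteriorly in the pre-streak epiblast none of 16 was lower (4.71% of all genes) and 2 were higher (6.09%), ITGA6 (121 against 34.2 CPM) and KIT (24.4 against 10.7 CPM). In the neural plate 7 of 17 were lower than in non-neural ectoderm and 2 higher (median -1.40 against 0.02), where 13.1% of all genes were called lower and 9.18% higher. KRT14 (1.06 against 70.2 CPM), KRT18 (5.45 against 165 CPM), the receptor gene EGFR (16.6 against 151 CPM) and the E-cadherin gene CDH1 (79.7 against 209.6 CPM) were among those lower. In the anterior preplacodal piece 4 of 17 were lower than in non-neural ectoderm and 3 higher (7.22% and 6.73% of all genes). In the posterior piece 5 of 17 were lower and 2 higher (8.48% and 6.93%). KRT14 (23.8 and 9.28 CPM), KRT18 (62.4 and 48.4 CPM) and EGFR (68.8 and 61.4 CPM) were lower in both pieces too, while CDH1 was at 158 and 243.5 CPM.

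Regulators of non-neural ectoderm and border were mostly lower in the pairs where TFAP2A was called lower. TFAP2C was higher in the grafted and the pre-streak pair and lower in those of the neural plate. A link of the list to either gene was not tested. On the grafted side 14 of 24 measured were lower, 2 higher and 8 neither (median -1.92 against 0.02 over all measured genes). There 8.57% of all genes were called lower and 7.56% higher. Anteriorly in the epiblast 13 of 23 were lower and 2 higher (median -1.51 against 0.01). In that pair 4.71% of all genes were called lower and 6.09% higher. In the neural plate against non-neural ectoderm 17 of 25 were lower and 1 higher (median -2.20 against 0.02). Of all genes 13.1% were called lower there and 9.18% higher. The counts of regulators called higher are thus near or below the shares over all genes. HESX1, which also stands in the list of neural plate genes, was the 1 higher in the neural plate pair (63.96 against 1.14 CPM). It was 1 of the 2 higher beside the graft (6.05 against 0.480 CPM). GATA2 stood at 21.0 against 341 CPM in the grafted, 24.1 against 134 CPM in the pre-streak and 3.26 against 660.0 CPM in the neural plate pair. GRHL3, which was 3.60 against 240.4 CPM beside the graft, was 0.0702 against 30.2 CPM in the epiblast and 0.400 against 318 CPM in the neural plate pair. Against the anterior preplacodal region the neural plate had 16 of 25 lower and none higher (6.60% and 2.86% of all genes). Against the posterior region it had 17 of 25 lower and 1 higher (5.03% and 2.14%). The neural plate comparisons all share the same neural plate library. In the posterior preplacodal region, where TFAP2A was 1.81-fold higher than in non-neural ectoderm, 10 of 25 were lower and 4 higher (8.48% and 6.93% of all genes). In the anterior piece 8 of 25 were lower and 4 higher (7.22% and 6.73%). In the posterior piece GRHL3 (32.2 against 318 CPM) and MSX2 (10.8 against 89.7 CPM) were lower while TFAP2A was not. BLIMP-1, a transcriptional repressor gene, was higher beside the graft (40.5 against 3.09 CPM), anteriorly in the epiblast (48.9 against 13.4 CPM) and in the anterior and posterior preplacodal pieces (175.6 and 176 against 25.5 CPM).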

How the data were processed

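Total RNA was made into libraries with a TruSeq RNA kit, per the labels' protocols. Alignment by TopHat2 and the build galGal4 come from the submitters' processing notes. What program counted reads, with which annotation and strand setting, is not given in the sources used here, so reads of unnamed genes that overlap the members cannot be told apart. The authors deposited raw counts per gene (17329 genes) and FPKM values (17327 genes). Count columns were matched to samples through their titles (the non-neural one has an added prefix p), and FPKM columns through library codes that both tables carry. The FPKM of each member followed its counts over the 8 libraries (Pearson r 0.997 to 0.998). No other gene had the counts of a member within 5% or 3 counts.

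CPM were computed with column totals; edgeR 4.0.16 (TMM) and DESeq2 1.42.0 in R 4.3.3 gave alternative scalings only, and neither tool's test was used. Intervals of ratios are Clopper-Pearson intervals conditional on the summed counts, those of paralogue contrasts exact conditional intervals of the odds ratio; all cover counting error only. The procedures were tested on simulated data. Of 141 listed genes 133 were matched, 6 of them through RefSeq names; FOXD3 and FOXI3 were not. The rule names the members, the 5 genes most like each (placeholder names, 4489 in the table, passed over) and called list members. The members and lists were chosen with earlier results of these data known. Python 3.11.15, numpy 2.4.6, pandas 2.3.3, scipy 1.17.1 and matplotlib 3.10.9 were used. Protein and promoter sequences of the members were not used here. The preplacodal markers are reported by gene; their sum is not reported here.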

Additional observations from a re-analysis of the deposited data

How the results depend on the processing

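No paired analysis was possible because each tissue has 1 library, and for the same reason no replicate could be left out. Of the 27 member ratios with counts in both libraries, none changed direction under TMM, DESeq2 size factors or FPKM. For the grafted pair the call of TFAP2C (log2 ratio 1.04) was lost where the interval bound had to reach 2, with FPKM and a pseudocount of 1 (0.96) or 0.1 (0.97), and with a ratio of 4; TFAP2A (-1.99) was lost with a ratio of 4. For the neural plate over the posterior preplacodal region the TFAP2B call (-1.02) was lost with a ratio of 4 or the interval bound, with TMM (-0.997), DESeq2 size factors (-0.96) and FPKM (-0.68 and -0.88). A ratio of 4 also ended the TFAP2C calls of non-neural ectoderm over ungrafted area opaca (1.51) and of the latter over central epiblast (-1.35). With a minimum of 1 CPM or of 3 counts TFAP2B became called for the neural plate (4.37) and the anterior preplacodal region (3.06) over non-neural ectoderm and for the neural plate over the anterior region (1.32). The TFAP2A share without length scaling was 31.6% (central epiblast), 1.03% (anterior epiblast), 11.9% (grafted area opaca), 52.6% (ungrafted), 69.1% (neural plate), 57.7% (anterior preplacodal), 64.1% (posterior preplacodal) and 43.5% (non-neural). With deposited FPKM, an alternative chosen after seeing the data, it was 46.1%, 1.995%, 19.2%, 65.2%, 78.0%, 69.0%, 73.9% and 58.1% in that order. In alternatives also chosen after seeing the data, the log2 ratio of the summed level turned from -0.27 to 0.14 (grafted pair) and from -0.18 to 0.17 (pre-streak pair) without length scaling, and was -0.24 and -0.20 on FPKM. The zeros of TFAP2B in the 2 shallowest libraries allow levels as high as those of the pre-streak libraries. Between 69 and 1462 genes were called per comparison and direction, against 13 to 624 with a ratio of 4, 118 to 2461 with a minimum of 1 CPM and 591 to 3977 with 3 counts. Scaling by coding length was not run, as no protein table was used here.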

Other observations

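The genes beside the paralogues in the RefSeq annotation of GRCg7b, another build than that of the files, had levels of their own. The protein-coding neighbours of TFAP2C are BMP7, a BMP ligand gene, and RTFDC1. BMP7 had 115 CPM beside the graft and 508.5 CPM opposite it, and stood at 37.4 CPM in the anterior and 294 CPM in the central epiblast, lower where TFAP2C was higher in both pairs. In the neural plate BMP7 was at 16.4 CPM and TFAP2C at 14.8 CPM, the lowest level of each gene over the 8 libraries. RTFDC1 ran from 98.1 CPM, also in the neural plate, to 162 CPM in the ungrafted area opaca.

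TFAP2B lies between PKHD1 and its relative TFAP2D in that annotation. TFAP2D had no count in 5 of the 8 libraries and at most 0.114 CPM, including 0.0433 CPM in the posterior preplacodal region where TFAP2B was highest. PKHD1 was highest in the non-neural ectoderm (66.1 CPM), where TFAP2B had 8 counts, and lowest in the neural plate (0.828 CPM).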
